A study of Mus musculus with 14 samples.

Results

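The claudins and other tight junction genes were followed through RNA-seq of 14 libraries of mouse lower urinary tract epithelium. The list of 33 genes held 19 claudins and 14 genes of the other junction proteins, chosen by name, and all 33 were found among the 55228 genes of the count tables. The libraries came from wild-type, untreated CD-1 female embryos. Bladder epithelium and urethral epithelium were each represented by 4 litters at embryonic day (E) 14.5 and 3 litters at E18.5. A library pooled the female embryos of 1 litter, and each litter gave both a bladder and a urethral sample, so the libraries of a stage do not come from unrelated animals. The notes on extraction speak of 3 litters per sample type, whereas E14.5 has 4 libraries per tissue, which were treated as separate litters. The study asked which genes set the compartments apart. The epithelium had been loosened with trypsin and pulled away from the mesenchyme with forceps, and both layers' RNA was present in every library.

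Tight junctions seal the space between neighbouring epithelial cells. Claudins are small membrane proteins whose strands form the seal, and their kind decides which ions and solutes can pass. Occludin, the tricellulin family and the junctional adhesion molecules lie beside them in the membrane. ZO proteins and cingulins tie the strands to actin inside the cell, and the Par and Crumbs complexes place the junction at the apical side. In the bladder, junctions between the superficial urothelial cells form part of the barrier that holds urine.

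Levels are given as counts in every 1e6 counts of a library (CPM) on effective library sizes, and as CPM per kilobase of gene length where genes are compared with each other. A gene is said to have passed, risen or been higher where the Benjamini-Hochberg adjusted p over all genes tested was under 0.05. Fold changes of tissue are bladder over urethra, so a negative log2 value is higher in urethra. They are printed as the log2 value ± its standard error (SE). Of the 33 genes, 27 had enough counts for the test in every comparison (13 claudins and all 14 others), and the other 6 are described by their counts.

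On the scale used here (TMM) more of the junction genes were higher in bladder than in urethra at E14.5, and they were divided between the tissues at E18.5. A scaling to pan-epithelial genes, described next, turned the E14.5 split round. At E14.5, 18 of the 27 genes passed, as did 44% of all genes tested. Of these 18, 14 were higher in bladder, where 23.1% of all genes tested were, and 4 were higher in urethra, where 20.9% were. At E18.5, 17 passed (37.9% of all genes), of which 7 were higher in bladder (19.3% of all genes) and 10 in urethra (18.6%). In bladder 17 changed with stage (40.3% of all genes), of which 6 rose from E14.5 to E18.5 (19.9% of all genes) and 11 fell (20.4%). In urethra 14 changed (33%), of which 13 rose (17.3%) and 1, Cldn6, fell (15.7%). The tissue difference itself changed between the stages for 20 of the 27 (22.9% of all genes), towards bladder for 5 (12.2% of all genes) and towards urethra for 15 (10.7%). The median log2 fold change of the 27 was 0.61 for E14.5 and -0.22 for E18.5, against -0.03 over all genes at either stage.

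These directions depended on what the libraries were scaled to. A set of 7 genes of epithelia in general, called pan-epithelial here (Cdh1, Epcam, St14, Spint2, Spint1, Esrp2 and Esrp1), summed to 3941 to 4696 CPM in E14.5 bladder and 1657 to 3656 CPM in E14.5 urethra. At E18.5 the sums were 2564 to 3408 CPM for bladder and 3596 to 4221 CPM for urethra. When each library was scaled to the geometric mean of those 7 genes, the all-gene median of log2 fold changes moved to -0.99 for E14.5 and to 0.36 for E18.5, and the median of the 27 to -0.31 and 0.13. At E14.5, 2 junction genes were then higher in bladder (3.22% of all genes) and 12 in urethra (67.7% of all genes), so the turn of the split went with a shift of genes at large. At E18.5, 7 were higher in bladder (29.3%) and 4 in urethra (7.64%). With stage, 9 rose (32.8%) and 3 fell (1.66%) in bladder, and 5 rose (5.77%) and 7 fell (48.8%) in urethra. The interaction was towards bladder for 10 (68.4%) and towards urethra for 3 (1.59%). Of the 18 junction genes that passed at E14.5, 6 kept their call and direction (Cldn9, Cldn11, Tjp3, Cgn, Jam2 and Jam3). Of the 17 that passed at E18.5, 11 did (Cldn1, Cldn3, Cldn5, Cldn6, Cldn8, Cldn10, Cldn11, Cldn15, Ocln, Jam2 and Jam3). In bulk RNA fewer cells of a type and less RNA per cell cannot be told apart.

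**Figure D1:**
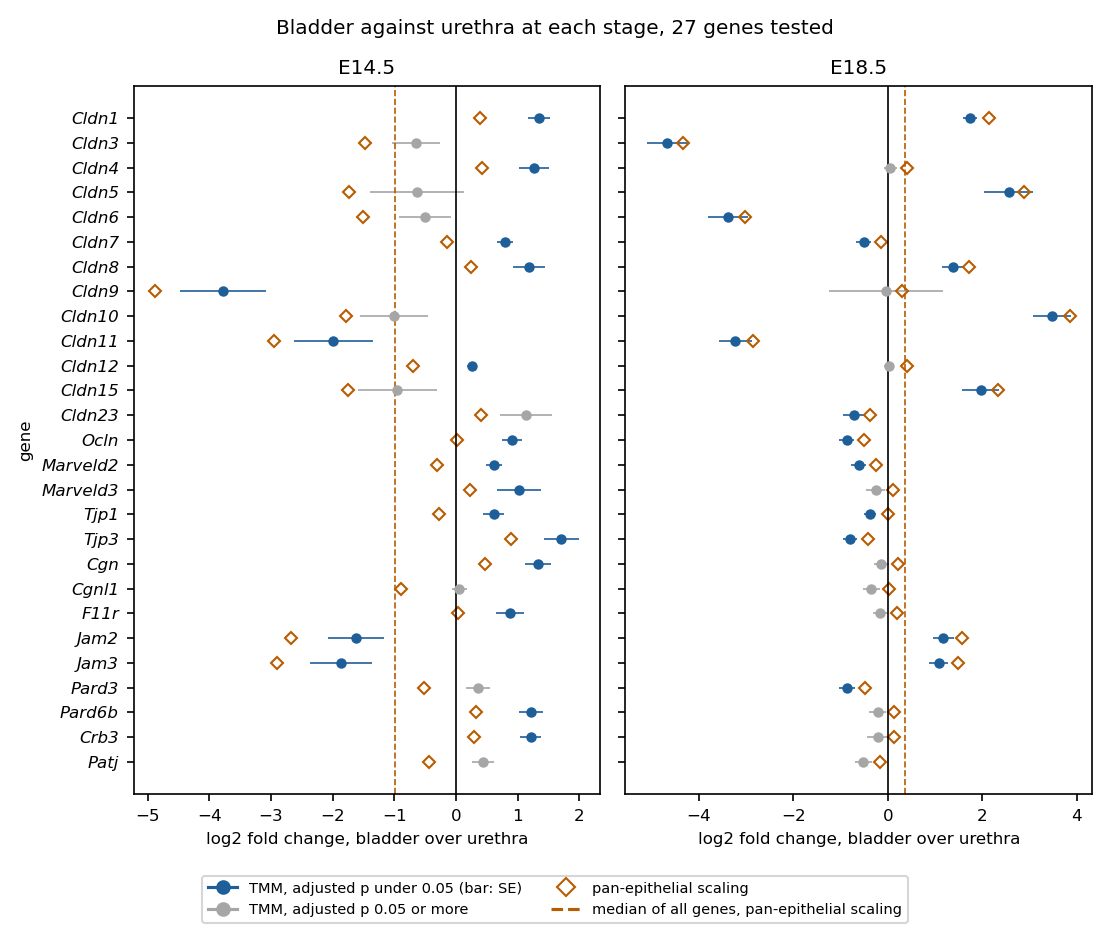
Log2 fold change of bladder over urethra (x axis) for the 27 genes tested (y axis), at E14.5 (left) and E18.5 (right). Circles with bars are the values and standard errors after TMM scaling, blue where adjusted p was under 0.05, and open diamonds are the values after scaling to 7 pan-epithelial genes, whose all-gene median is the dashed line (-0.99 and 0.36). Most E14.5 circles lie right of 0 and the diamonds lie to their left, while Cldn3, Cldn6 and Cldn11 at E18.5 lie left of 0 on both scales.

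The labelled tissue was checked with marker genes. Pan-epithelial genes and 5 uroplakin genes of superficial urothelium were above 0 in every group. The uroplakins summed to 3651 to 7040.5 CPM in E14.5 bladder and 251 to 1771 CPM in E14.5 urethra, where replicate 1 held 1771 CPM and the next library 464 CPM. At E18.5 they summed to 6551 to 10008 CPM in the bladder libraries and 1864 to 2133 CPM in the urethral ones, and all 5 were higher in bladder at both stages. The 5 basal epithelium markers (Krt5, Krt14, Krt15, Trp63 and Col17a1) summed to 1105 to 2342 CPM in E14.5 bladder and 1558 to 6697 CPM in E14.5 urethra, which overlapped. Their E18.5 sums were 3787 to 4540.2 CPM for bladder and 7393 to 8016 CPM for urethra. At E14.5, 3 of these 5 passed, higher in urethra, and all 5 did so at E18.5, and with stage 3 rose in bladder and 2 in urethra. None of the markers of mesenchyme, smooth muscle, endothelium, glia, immune cells or mesothelium was at 0 throughout a group. The 15 mesenchyme markers summed to 20138 to 30117 CPM in E18.5 bladder and 4761 to 5712 CPM in E18.5 urethra. Their sums were 1062 to 4405 CPM in E14.5 bladder and 2308 to 6284 CPM in E14.5 urethra. Depth was 21.1 to 36.8 M counts (M, 1e6) per library. The part that this admixture and the basal and superficial make-up had in the junction gene results was not tested, apart from the values given beside them.

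Cldn4 (chr5:134945119-134946934, GRCm38), which encodes a barrier-forming claudin of simple epithelia and urothelium, had the highest level of the 33 genes per kilobase in every group. It stood at 474 ± 61.8 CPM per kilobase (SD, n = 4) in E14.5 bladder and 192 ± 74.4 (n = 4) in E14.5 urethra. At E18.5 it stood at 459 ± 73.5 (n = 3) in bladder and 438 ± 37.1 (n = 3) in urethra. In no group did its range overlap that of the gene ranked next. That next gene differed between groups. It was Cldn7 in E14.5 bladder (116 ± 17.0), Cldn6 in E14.5 urethra (103 ± 19.3), F11r in E18.5 bladder (102 ± 19.5) and Cldn3 in E18.5 urethra (166 ± 34.8). The ranges of Cldn7 and F11r overlapped in E14.5 bladder, as did those of F11r and Cldn8 in E18.5 bladder, so their order there is not settled. Among genes that are no claudins, F11r and Tjp1 had the highest levels in all 4 groups.

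**Figure D2:**
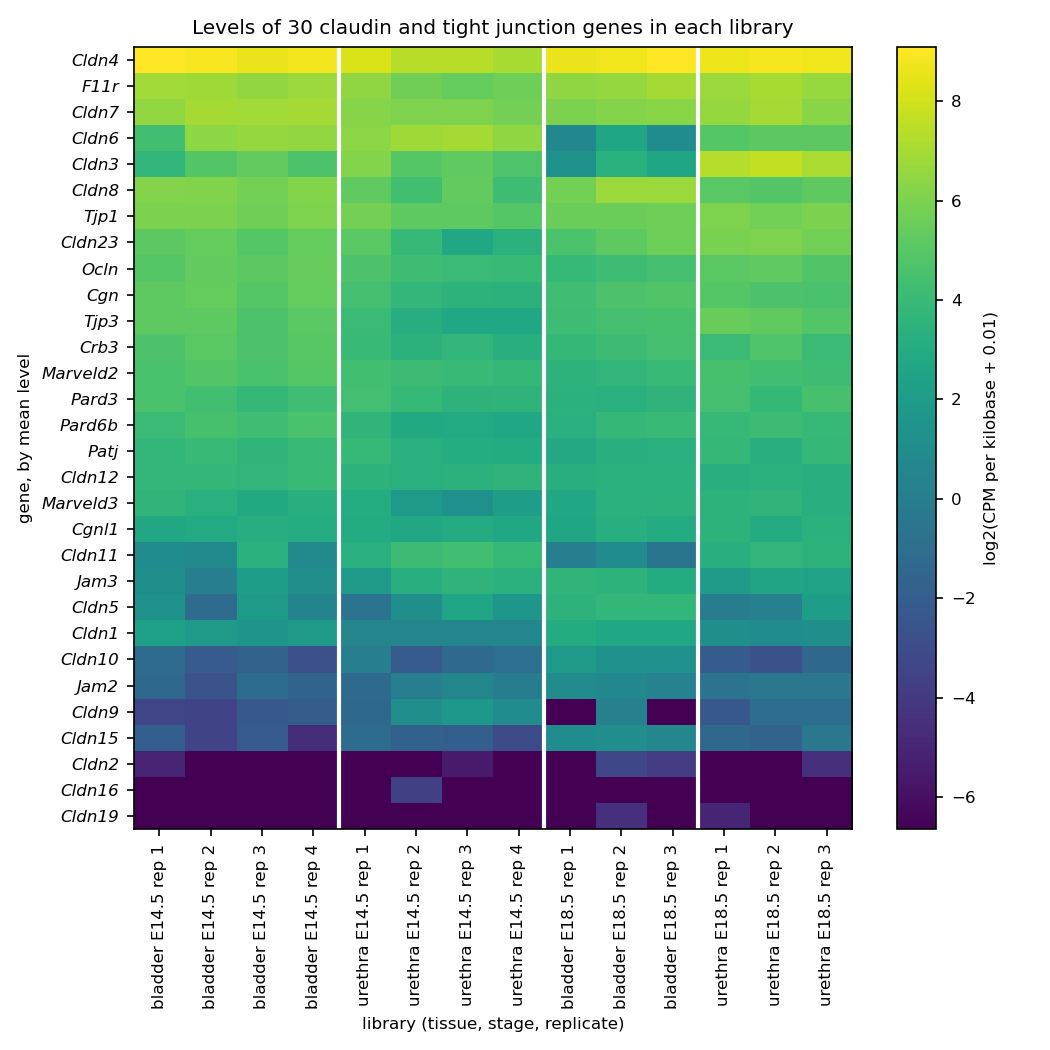
Levels of the 30 genes with any count (rows, ordered by mean level) in each of the 14 libraries (columns), as log2 of CPM per kilobase plus 0.01. Cldn4 is brightest in every column, and Cldn3 and Cldn6 are darker in the 3 E18.5 bladder libraries than in the other libraries.

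The make-up of claudin RNA in a library does not depend on library size, and the mean shares of Cldn4, Cldn6 and Cldn3 differed between the 4 groups. As a share of the summed claudin level per kilobase, Cldn4 made up 57.7 ± 7.20% (SD, n = 4) in E14.5 bladder and 39.0 ± 6.09% in E14.5 urethra. At E18.5 it made up 65.4 ± 3.11% (n = 3) in bladder and 51.2 ± 2.45% in urethra. Cldn6 held 22.2 ± 6.01% in E14.5 urethra and 9.05 ± 4.53% in E14.5 bladder, and at E18.5 it held 3.95 ± 0.393% and 0.463 ± 0.346%. Cldn3 took the opposite course in urethra, with 8.34 ± 1.99% at E14.5 and 19.2 ± 2.16% at E18.5, while in bladder it held 3.31 ± 1.46% and then 0.911 ± 0.545%. Cldn8 held 8.25 ± 0.83% and 12.5 ± 2.67% in bladder at the 2 stages, and 5.90 ± 1.59% and 3.98 ± 0.792% in urethra. Cldn7 stayed between 10.2 and 14.2% in mean over the 4 groups. The 4 most abundant claudins of a group together held 81.6 to 94.6% of the claudin sum in single libraries. Some ranges overlapped. Cldn4 held 51.4 to 68.0% in E14.5 bladder and 62.0 to 68.1% in E18.5 bladder. Cldn6 held 2.49 to 12.7% in E14.5 bladder and 3.69 to 4.40% in E18.5 urethra. The ranges of Cldn3 did not overlap between any of the groups. These shares are a description and were not tested.

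**Figure D3:**
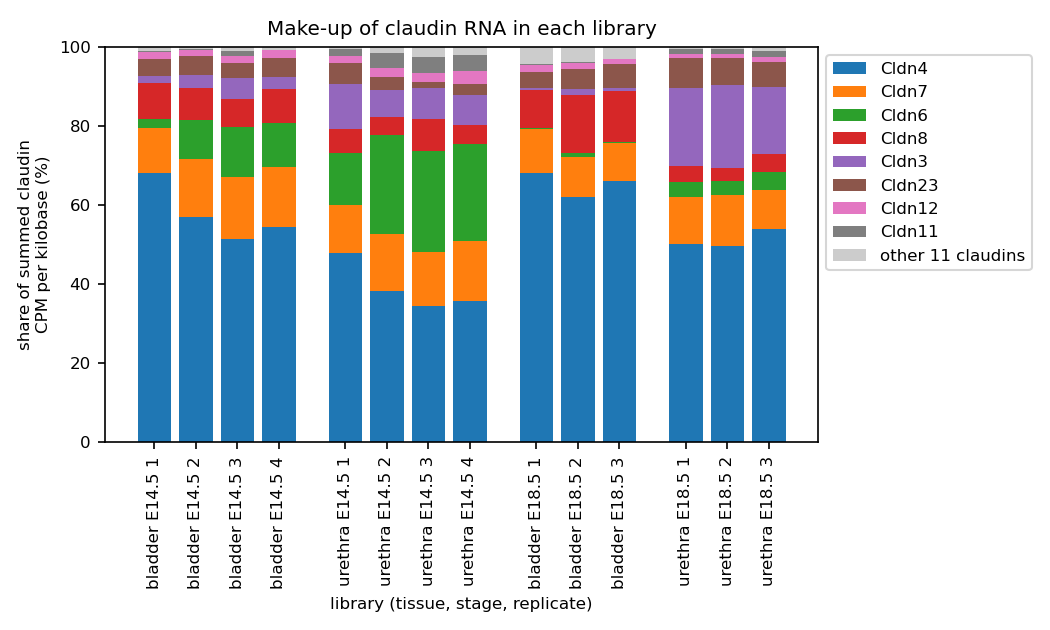
Share of each claudin in the summed claudin CPM per kilobase (y axis, %) in each library (x axis). Cldn4 is the largest block in all 14 libraries, Cldn6 (green) is wide in E14.5 urethra and nearly absent in E18.5 bladder, and Cldn3 (purple) is widest in E18.5 urethra.

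Of the 19 claudins, 6 that are known mainly from other organs or little known were at or near 0. Cldn14, known from the inner ear and kidney, Cldn18, known from stomach and lung, and Cldn22 had 0 counts in all 14 libraries. A count of 0 over the 378 M counts of the 14 libraries together allows up to 0.00797 CPM, which is 3 counts, and this covers counting error only. The 995 exon bases of Cldn22 lie wholly within Wwc2 on the opposite strand (45.6 CPM), so its 0 depends on how overlapping genes were counted. Cldn2, a cation and water channel, had 19 counts in all, 12 of them in 2 E18.5 bladder libraries. Cldn16 and Cldn19, which work together in the kidney, had 2 and 6 counts.

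Cldn3 and Cldn4 are neighbours on chromosome 5, 39.3 kb apart and on opposite strands. With stage both rose in urethra, while in bladder Cldn3 fell and Cldn4 did not pass. Their upstream sequences are shown because the genes are neighbours, and those of Tjp3 and Pard6b because both genes were higher in E14.5 bladder and hold the E-box motif. Each is the 250 bases before the RefSeq start on the gene's own strand, in GRCm38.p6, outside every exon of GENCODE vM21, with E-box letters (CAGGTG, or CACCTG on the other strand) in capitals.
Cldn3, chr5:134985964-134986213, plus strand: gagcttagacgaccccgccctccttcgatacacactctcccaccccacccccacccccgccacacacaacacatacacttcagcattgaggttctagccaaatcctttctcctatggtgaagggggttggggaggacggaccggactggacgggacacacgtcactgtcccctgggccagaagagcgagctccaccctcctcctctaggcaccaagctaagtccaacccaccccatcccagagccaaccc
Cldn4, chr5:134946935-134947184, minus strand: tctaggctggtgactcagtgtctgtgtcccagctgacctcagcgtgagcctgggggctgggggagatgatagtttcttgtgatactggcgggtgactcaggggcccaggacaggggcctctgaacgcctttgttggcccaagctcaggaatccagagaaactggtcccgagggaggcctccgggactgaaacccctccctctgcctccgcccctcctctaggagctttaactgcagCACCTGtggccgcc
Tjp3, chr10:81291582-81291831, minus strand: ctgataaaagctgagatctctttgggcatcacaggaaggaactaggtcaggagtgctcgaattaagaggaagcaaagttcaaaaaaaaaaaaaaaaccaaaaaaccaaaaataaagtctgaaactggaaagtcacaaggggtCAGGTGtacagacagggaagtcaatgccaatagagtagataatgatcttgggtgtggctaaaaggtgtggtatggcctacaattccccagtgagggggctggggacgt
Pard6b, chr2:168080754-168081003, plus strand: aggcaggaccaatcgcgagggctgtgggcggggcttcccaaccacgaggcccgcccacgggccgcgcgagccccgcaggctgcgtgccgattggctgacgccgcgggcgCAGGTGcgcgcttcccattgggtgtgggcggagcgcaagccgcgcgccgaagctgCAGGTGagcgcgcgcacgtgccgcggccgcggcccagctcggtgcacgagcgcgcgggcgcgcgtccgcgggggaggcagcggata
The E-box begins 14 bases before the start in Cldn4, 108 before it in Tjp3, and 141 and 86 before it in Pard6b, and the Cldn3 window has none. The windows of Cldn7 and Ocln made by the same rule, not shown, also have none, though both genes were higher in E14.5 bladder. Tjp3 and Pard6b were picked for holding the motif, and a link of motif and level was not tested.

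Promoter windows were found for 27 of the 33 genes (42 windows), and 11 genes (40.7%) held the E-box in the 250 bases before a start, against 19.4% of the 27025 genes with a window. They were Cldn4, Cldn6, Cldn7, Cldn14, Ocln, Tjp3, F11r, Pard3, Pard6b, Crb3 and Patj. Cldn7 and Ocln matched in the window of another start and not in their window outside exons. A gene was counted where any of its windows matched, so a gene with more windows had more chances. The shares here were not adjusted for the number of windows per gene. The GC box GGGCGG was in 20 of the 27 (74.1%, against 35.4% of all genes), among them Cldn3 and Cldn4. The letters AACCNGTT, bound by Grainyhead-like factors, were in 2, Cldn5 and Cgn (7.41% against 2.00%). TATAAA was in 3 (11.1% against 14.3%), GATAAG in 2 (7.41% against 7.60%) and TGTTTAC, a forkhead motif, in none (3.54% of all genes). Both strands were searched, the motifs were chosen after the sequences had been looked at, and a match is a description of letters, not of binding.

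Cldn4 was higher in bladder than in urethra at E14.5, and the tissues did not differ by the test at E18.5. Its CPM in the 4 E14.5 bladder libraries were 990.1, 896, 723 and 832, and in the 4 E14.5 urethral libraries 545, 310.5, 301 and 237. At E18.5 they were 722, 796 and 982 in bladder and 735, 868 and 786 in urethra. The groups did not overlap at E14.5 (log2 1.26 ± 0.24, adjusted p = 0.00386) and did at E18.5 (log2 0.05 ± 0.14, adjusted p = 0.819). Urethra rose between the stages (log2 1.18 ± 0.22, adjusted p = 0.00197) while bladder had a log2 fold change of -0.01 (SE 0.22). The tissue difference changed by -1.19 (SE 0.32, adjusted p = 0.0182). Under pan-epithelial scaling the urethral rise kept its call at 0.53 and the E14.5 difference lost it at 0.41 (adjusted p = 0.0619). The interaction then stood at -0.01 (adjusted p = 0.98), and bladder passed as higher at E18.5 (0.52), where 32.8% of all genes then rose.

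Cldn3 (chr5:134986214-134987472), a barrier-forming claudin close in sequence to Cldn4, fell in bladder and rose in urethra. Its CPM were 16.4, 36.6, 50.5 and 32.7 in E14.5 bladder and 88.9, 38.5, 47.5 and 34.3 in E14.5 urethra, and these ranges overlapped (log2 -0.65 ± 0.39, adjusted p = 0.203). At E18.5 they were 3.22, 13.4 and 8.10 in bladder and 201, 256 and 170.1 in urethra, with no overlap. This was a 25.6-fold difference (log2 -4.68 ± 0.43, adjusted p = 0.000128). The fall in bladder (log2 -2.01 ± 0.49, adjusted p = 0.00522) and the rise in urethra (log2 1.98 ± 0.44, adjusted p = 0.00489) both passed. The change of the tissue difference passed as well (-3.99, SE 0.66, adjusted p = 0.00198). These 4 calls were also made under pan-epithelial scaling (-4.34, -1.52, 1.34 and -2.86), and each was kept without any 1 library. Under that scaling Cldn3 also passed at E14.5 as higher in urethra (-1.48, adjusted p = 0.0035), as did 67.7% of all genes.

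Cldn6 (chr17:23679249-23682446), a claudin of early embryonic epithelia, fell in both tissues and further in bladder. E14.5 bladder held 34.4, 147, 169.7 and 161 CPM and E14.5 urethra 143, 195, 214 and 155 CPM. Bladder replicate 1 stood far below the other 3 and the test did not pass (log2 -0.50 ± 0.42, adjusted p = 0.358). At E18.5 bladder held 2.81, 10.5 and 3.49 CPM and urethra 52.5, 61.3 and 60.8 CPM, which did not overlap (log2 -3.39 ± 0.43, adjusted p = 0.000564). The fall was -4.46 log2 units in bladder (SE 0.58, adjusted p = 8.78e-05) and -1.61 in urethra (SE 0.49, adjusted p = 0.0232). The interaction was -2.85 (adjusted p = 0.012). Without E18.5 bladder replicate 2 the E18.5 difference was -4.20, the bladder fall -5.34 and the interaction -3.73. The urethral call was kept without E14.5 replicate 1, E14.5 replicate 2 or E14.5 replicate 4 and lost without any of the other 4 libraries (adjusted p = 0.0528 to 0.0815). Under pan-epithelial scaling the interaction was -1.53 (adjusted p = 0.0656). The E18.5 difference (-3.03) and both falls (-3.94 and -2.42) were still called. Cldn9, whose gene ends 138 bases from that of Cldn6 on the opposite strand, was at 0.125, 0.115, 0.271 and 0.344 CPM in E14.5 bladder and 0.527, 3.28, 4.78 and 2.75 CPM in E14.5 urethra (log2 -3.78 ± 0.70, adjusted p = 0.0034). At E18.5 it had no counts in 2 bladder libraries and 1.65 CPM in the third, above the 0.259 to 0.731 CPM of urethra (log2 -0.04 ± 1.21, adjusted p = 0.982).

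Cldn8 and Cldn1 were the only claudins higher in bladder at both stages by the test. Cldn8 (chr16:88560828-88563183), a claudin of distal nephron and urothelium, held 173, 166, 131 and 169 CPM in E14.5 bladder and 89.3, 47.9, 91.7 and 42.6 CPM in E14.5 urethra (log2 1.19 ± 0.26, adjusted p = 0.00691). At E18.5 it held 132, 247 and 251 CPM in bladder and 79.9, 70.6 and 87.7 CPM in urethra (log2 1.38 ± 0.23, adjusted p = 0.00217). Neither stage showed any overlap of the tissues, and neither tissue changed with stage by the test (adjusted p = 0.232 in bladder and 0.583 in urethra). Cldn1 (chr16:26356642-26371841), needed for the barrier of the epidermis, held 24.9, 16.9, 13.7 and 17.5 CPM in E14.5 bladder and 6.99, 6.89, 7.11 and 7.03 CPM in E14.5 urethra (log2 1.34 ± 0.18, adjusted p = 0.000975). At E18.5 the values were 40.1, 32.7 and 33.5 CPM in bladder and 10.9, 9.34 and 11.2 CPM in urethra (log2 1.74 ± 0.15, adjusted p = 9.84e-05). It rose with stage in bladder (log2 0.99 ± 0.17, adjusted p = 0.000491) and in urethra (log2 0.57 ± 0.17, adjusted p = 0.0222). The urethral call was lost without E14.5 replicate 2, E18.5 replicate 1 or E18.5 replicate 3 (adjusted p = 0.0564 to 0.0631). Pan-epithelial scaling ended the E14.5 calls of both genes (0.25 for Cldn8 and 0.38 for Cldn1) and turned the urethral rise of Cldn1 to -0.19. It kept both E18.5 calls (1.72 and 2.14), where 29.3% of all genes were then called higher in bladder. New calls under it were a rise of Cldn8 in bladder (0.94, adjusted p = 0.0179) and interactions of 1.47 for Cldn8 (adjusted p = 0.00641) and 1.75 for Cldn1 (adjusted p = 0.0032). Interactions towards bladder were then called for 68.4% of all genes, and rises in bladder for 32.8%.

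Cldn11 (chr3:31149920-31164324), known from myelin and Sertoli cells, was the only one of the 27 genes higher in urethra at both stages. Its CPM were 3.73, 3.25, 19.6 and 3.40 in E14.5 bladder and 19.2, 32.6, 36.9 and 28.1 in E14.5 urethra. Bladder replicate 3 reached the lowest urethral library (log2 -1.99 ± 0.64, adjusted p = 0.0332). At E18.5 they were 1.93, 3.60 and 1.28 in bladder and 17.9, 24.5 and 21.3 in urethra, with no overlap (log2 -3.23 ± 0.34, adjusted p = 0.000239). Without bladder replicate 3 the E14.5 value was -3.13. The call was kept without bladder replicate 3 or urethra replicate 1 and lost without any of the other 6 libraries (adjusted p = 0.0651 to 0.0807). The 6 Schwann and glial markers, which include myelin genes, summed to 397 to 500.2 CPM in E14.5 bladder and 244 to 441 CPM in E14.5 urethra. Their E18.5 sums were 233 to 308 CPM for bladder and 362 to 447 CPM for urethra. At E18.5 these sums did not overlap, but the mean log2 CPM of the 6 markers did, at 3.32 to 3.63 in bladder and 2.82 to 3.94 in urethra. The sums and the mean log2 levels thus differ in whether the tissues overlapped. Of the 6 markers, 2 were higher in urethra and 1 in bladder at E18.5. At E14.5, 1 was higher in urethra and 2 in bladder. Their part in the Cldn11 result was not tested.

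**Figure D4:**
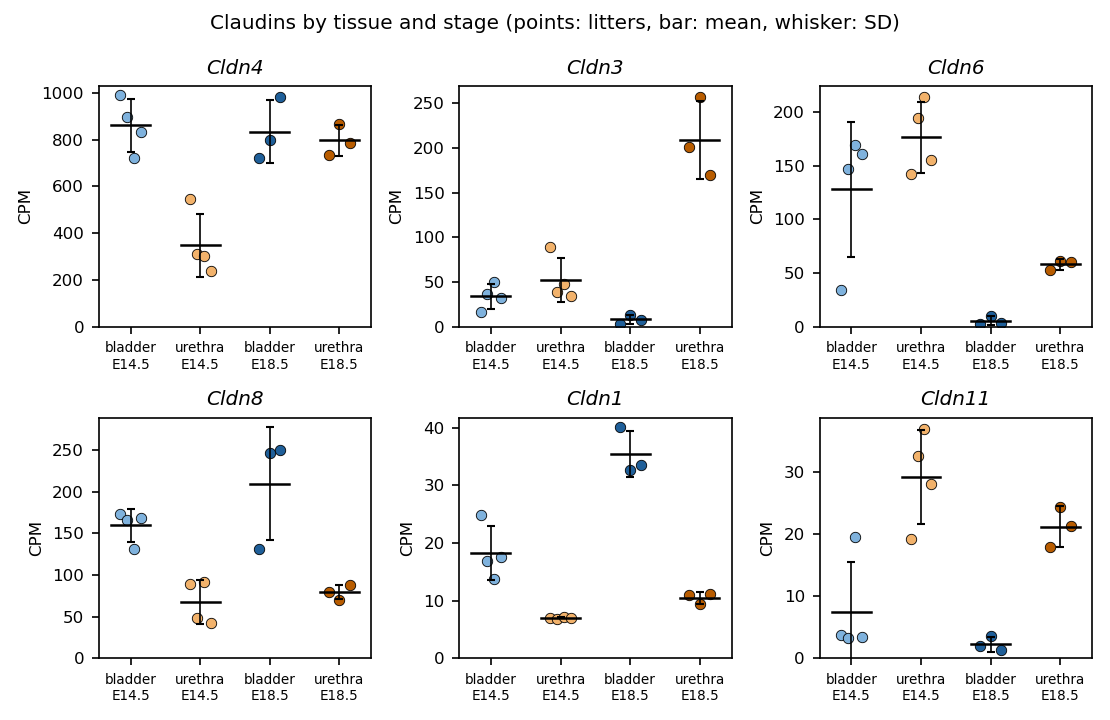
CPM (y axis, from 0) of 6 claudins in bladder and urethra at E14.5 (4 litters each) and E18.5 (3 litters each). Points are litters, horizontal bars means and whiskers SD. Cldn3 in E18.5 urethra stands above all other groups, Cldn6 is lowest in E18.5 bladder, and Cldn8 and Cldn1 are higher in bladder at both stages.

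Cldn7 (chr11:69964779-69967885), found along the side walls of many epithelia, changed sides. It held 178, 246, 235 and 248 CPM in E14.5 bladder and 149, 127, 127 and 107 CPM in E14.5 urethra (log2 0.79 ± 0.13, adjusted p = 0.00234). The E18.5 values were 126, 139.9 and 151 CPM in bladder and 189, 243 and 154 CPM in urethra (log2 -0.51 ± 0.16, adjusted p = 0.0383). Neither stage had overlapping tissues, although the E18.5 call was kept without urethra replicate 3 and lost without any of the other 5 libraries (adjusted p = 0.0698 to 0.132). It fell in bladder (-0.67, adjusted p = 0.0049) and rose in urethra (0.60, adjusted p = 0.0113). The rise was lost without E18.5 replicate 2 (adjusted p = 0.0564). The interaction was -1.28 (adjusted p = 0.00271). Pan-epithelial scaling left none of these calls, with -0.14 at E14.5, -0.14 at E18.5, -0.13 for bladder, -0.13 for urethra and 0.00 for the interaction.

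Cldn23 (chr8:35824712-35826559), a claudin of differentiated epithelial cells, rose in urethra. It held 62.0, 27.6, 13 and 19.5 CPM in E14.5 urethra, the first of which lay apart from the rest, and 111, 121 and 97.3 CPM in E18.5 urethra (log2 1.83 ± 0.39, adjusted p = 0.00406). The value was 2.44 without E14.5 replicate 1 and 1.31 under pan-epithelial scaling, where it was still called. Bladder held 64.5, 77.4, 55.7 and 76.4 CPM and then 46.1, 66.3 and 89.6 CPM. Its E18.5 difference of tissue (log2 -0.72 ± 0.22, adjusted p = 0.0294) was kept without bladder replicate 3 or urethra replicate 3 and lost without any of the other 4 libraries (adjusted p = 0.0574 to 0.0872). Its interaction (-1.83, adjusted p = 0.033, -2.43 without urethra E14.5 replicate 1) was kept without bladder E14.5 replicate 1, bladder E14.5 replicate 3, urethra E14.5 replicate 1, urethra E14.5 replicate 3 or bladder E18.5 replicate 3 and lost without any of the other 9 libraries (adjusted p = 0.0547 to 0.0823). Under pan-epithelial scaling the E18.5 difference lost its call (-0.38, adjusted p = 0.13) and the interaction stood at -0.78. Cldn12, a widely expressed claudin, ranged over 55.1 to 66.3 CPM in E14.5 bladder and 43.1 to 51.4 CPM in E14.5 urethra. At E18.5 it ranged over 41.5 to 45.7 CPM for bladder and 41.6 to 45.3 CPM for urethra. It passed as higher in E14.5 bladder (0.26, adjusted p = 0.0317), a call kept without bladder replicate 3, urethra replicate 1 or urethra replicate 4 and lost without any of the other 5 libraries (adjusted p = 0.064 to 0.0855). It fell in bladder with stage (-0.39, adjusted p = 0.00257). Pan-epithelial scaling turned both (-0.70 and 0.16).

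Besides Cldn1, 5 genes were higher in bladder at E18.5 and had risen there since E14.5. Cldn5 (chr16:18776847-18778262), the main claudin of endothelium, held 16.5, 19.1 and 19.0 CPM there and 1.34, 1.60 and 5.99 CPM in E18.5 urethra (log2 2.57 ± 0.52, adjusted p = 0.00537), with no overlap. At E14.5 it held 3.76, 0.634, 5.33 and 1.92 CPM in bladder and 0.879, 3.28, 8.96 and 4.48 CPM in urethra, which overlapped (log2 -0.63 ± 0.76, adjusted p = 0.521). It rose in bladder (log2 2.68 ± 0.75, adjusted p = 0.0119). Without urethra replicate 3 the E18.5 difference was 3.60. Its interaction of 3.24 (adjusted p = 0.0442) was kept without bladder E14.5 replicate 3, urethra E14.5 replicate 1 or urethra E18.5 replicate 3 and lost without any of the other 11 libraries (adjusted p = 0.0563 to 0.107). It was 4.27 without urethra E18.5 replicate 3 and 2.64 without urethra E14.5 replicate 3.

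Cldn10 and Cldn15, which form ion channels in kidney and intestine, were also higher in E18.5 bladder, at low levels. Cldn10 held 9.11, 6.97 and 6.38 CPM in E18.5 bladder and 0.605, 0.356 and 1.01 CPM in E18.5 urethra (log2 3.47 ± 0.41, adjusted p = 0.000371). At E14.5 it had 0.344 to 1.16 CPM for bladder and 0.533 to 2.72 CPM for urethra, and its bladder rise was 3.40 (SE 0.53, adjusted p = 0.000303). Cldn15 stood at 3.34 to 4.46 CPM in E18.5 bladder and 0.652 to 1.58 CPM in E18.5 urethra (log2 1.96 ± 0.39, adjusted p = 0.00505). It rose in bladder by 3.70 log2 units (adjusted p = 0.000329). The interactions were 4.51 for Cldn10 (adjusted p = 0.00222) and 2.95 for Cldn15 (adjusted p = 0.0212). The latter was lost without urethra E18.5 replicate 1 or urethra E18.5 replicate 2 (adjusted p = 0.0521 to 0.0582).

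Jam2 and Jam3, adhesion molecules known from endothelium and from stromal and other cells, were on the urethral side at E14.5 and on the bladder side at E18.5. Jam2 (chr16:84774123-84825928) held 2.29, 0.922, 2.80 and 1.99 CPM in E14.5 bladder and 2.46, 6.44, 8.96 and 6.01 CPM in E14.5 urethra (log2 -1.62 ± 0.46, adjusted p = 0.021). By E18.5 it stood at 11.5, 9.89 and 7.66 CPM in bladder and 3.85, 4.48 and 4.42 CPM in urethra (log2 1.17 ± 0.22, adjusted p = 0.00409). Jam3 (chr9:27097384-27155421) held 7.21, 3.43, 14.5 and 6.98 CPM in E14.5 bladder and 11.2, 29.4, 38.9 and 34.4 CPM in E14.5 urethra (log2 -1.86 ± 0.50, adjusted p = 0.0173). At E18.5 it stood at 40.8, 36.1 and 26.5 CPM in bladder and 12.8, 18.7 and 17.0 CPM in urethra (log2 1.07 ± 0.20, adjusted p = 0.00391). The tissues overlapped at E14.5 and not at E18.5 for both. The E14.5 call of Jam2 was lost without bladder replicate 4, urethra replicate 2 or urethra replicate 3 (adjusted p = 0.0505 to 0.0555). That of Jam3 was lost without bladder replicate 4 (adjusted p = 0.0504). In bladder they rose by 2.32 and 2.14 log2 units (adjusted p = 0.000629 and 0.00201). Their interactions were 2.82 and 2.97 (adjusted p = 0.00499 and 0.00653). Of the 3200 exon bases of Jam3, 2219 are shared with Gm48796 on the opposite strand, which stood at 0.646 CPM.

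Like these 5 genes, markers of several other cell types were higher in bladder at E18.5, where 19.3% of all genes tested were. They were all 10 endothelial and all 7 smooth muscle markers, 12 of 15 mesenchyme, 5 of 6 immune and 3 of 4 mesothelium markers. The remaining mesothelium marker was higher in urethra, and of the 6 glial markers 1 was higher in bladder and 2 in urethra. The mesothelium list shares Upk3b with the uroplakin list, all of which was higher in bladder. Upk3b is thus counted in both lists and does not mark mesothelium alone. At E14.5, Jam2 and Jam3 were higher in urethra. So were 5 mesenchyme markers and 1 smooth muscle marker (20.9% of all genes), and none of either list was higher in bladder (23.1%). No endothelial or immune marker passed at E14.5. The endothelial markers summed to 347 to 516 CPM in E18.5 bladder and 89.2 to 132 CPM in E18.5 urethra. Their E14.5 sums were 51.8 to 156 CPM for bladder and 48.2 to 255 CPM for urethra. Scaling to pan-epithelial genes kept the E18.5 calls of all 5, at 2.89 for Cldn5, 3.86 for Cldn10, 2.34 for Cldn15, 1.58 for Jam2 and 1.48 for Jam3. That scaling moved genes at large towards bladder at E18.5, with an all-gene median of 0.36 and 29.3% of all genes called higher there. These kept calls therefore add no support. With the mean mesenchyme level as a covariate none of the 27 genes passed at E18.5, and 4 of all genes did. The mesenchyme sums of the 2 tissues did not overlap there, so tissue and mesenchyme content cannot be told apart.

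**Figure D5:**
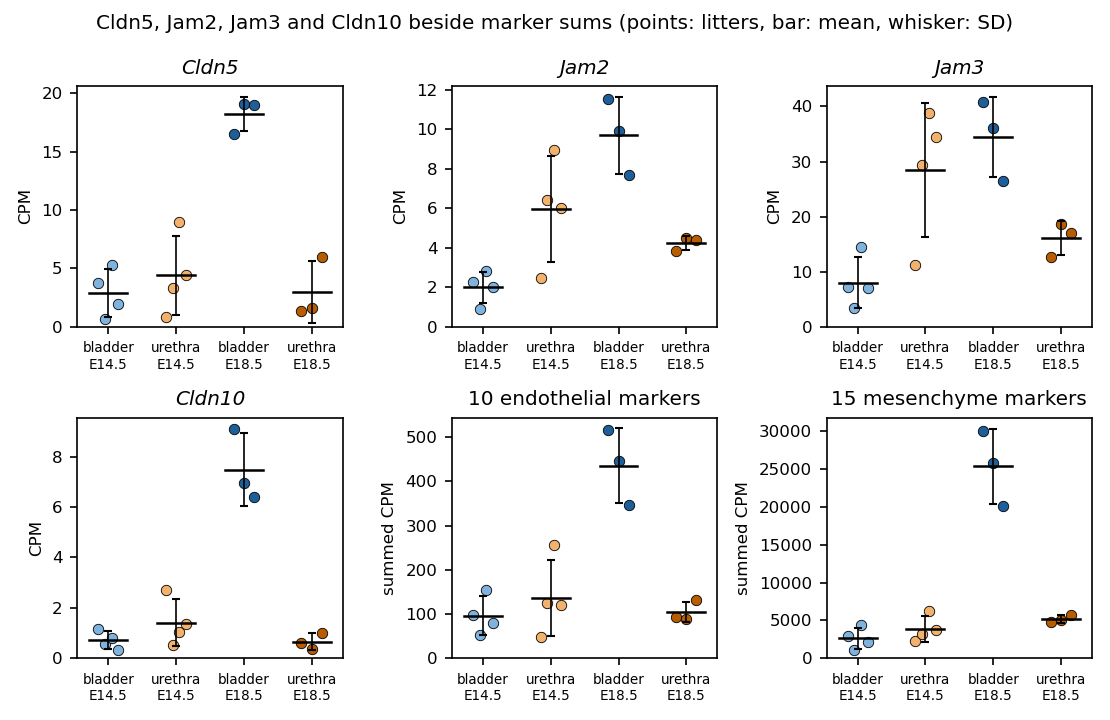
CPM of Cldn5, Jam2, Jam3 and Cldn10, and the summed CPM of 10 endothelial and 15 mesenchyme markers (y axes, from 0), in bladder and urethra at E14.5 (4 litters each) and E18.5 (3 each). Points are litters, horizontal bars means and whiskers SD. In all 6 panels the E18.5 bladder libraries lie above those of E18.5 urethra.

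Among the membrane proteins with 4 spans other than claudins, Ocln (chr13:100496507-100552718), which encodes occludin, changed sides between the stages. It held 132, 168, 147 and 185 CPM in E14.5 bladder and 111, 76.2, 70.8 and 68.6 CPM in E14.5 urethra (log2 0.91 ± 0.17, adjusted p = 0.00336). E18.5 levels were 63.4, 76.3 and 92.4 CPM in bladder and 139.6, 159 and 119 CPM in urethra (log2 -0.87 ± 0.16, adjusted p = 0.00356). The tissues overlapped at neither stage. Ocln fell in bladder (-0.998, adjusted p = 0.000946) and rose in urethra (0.76, adjusted p = 0.00659). The interaction was -1.76 (SE 0.26, adjusted p = 0.00102). Under pan-epithelial scaling the E18.5 difference (-0.51) and the bladder fall (-0.46) were still called. The E14.5 difference (0.02), the urethral rise (0.06) and the interaction (-0.53, adjusted p = 0.0529) were not.

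Marveld2 (chr13:100595957-100616971), which encodes tricellulin of the corners where cells meet, lies 43.2 kb from Ocln on chromosome 13 and went the same way at both stages. It stood at 79.2 to 103 CPM in E14.5 bladder and 47.6 to 67.5 CPM in E14.5 urethra (log2 0.61 ± 0.13, adjusted p = 0.00556). At E18.5 the ranges were 38.4 to 55.6 CPM for bladder and 63.5 to 76.6 CPM for urethra (log2 -0.62 ± 0.15, adjusted p = 0.0127). The E18.5 call was lost without bladder replicate 2 or urethra replicate 1 (adjusted p = 0.0525 to 0.0533). It fell in bladder (-0.94, adjusted p = 0.000327) and had 0.27 in urethra (adjusted p = 0.168). The interaction was -1.21 (adjusted p = 0.00222). Pan-epithelial scaling turned the E14.5 difference to -0.31 and the interaction to 0.05. It made the urethral value a fall (-0.46, adjusted p = 0.0401), where 48.8% of all genes then fell. It ended the other calls (-0.26 for the E18.5 difference and -0.40 for the bladder fall). Marveld3, the remaining family member, was higher in E14.5 bladder (25.0 to 40.5 against 7.91 to 28.2 CPM, 1.02, adjusted p = 0.0437). The call was kept without bladder replicate 3 or urethra replicate 1 and lost without any of the other 6 libraries (adjusted p = 0.0731 to 0.108), and it was also lost under pan-epithelial scaling (0.23). It rose in urethra to 30.2 to 41.5 CPM (1.22, adjusted p = 0.0139), which was lost without E18.5 replicate 2 (adjusted p = 0.0544) and kept at 0.62 under that scaling.

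The cytoplasmic plaque genes Tjp1 and Tjp3, which encode ZO scaffold proteins, also changed sides. Tjp3 (chr10:81273207-81291581) held 135, 137, 98.3 and 126 CPM in E14.5 bladder and 63.2, 33.4, 26.2 and 25.3 CPM in E14.5 urethra. This was a 3.26-fold difference (log2 1.71 ± 0.29, adjusted p = 0.00233). At the later stage it held 69.7, 81.1 and 84.3 CPM in bladder and 158, 139 and 109 CPM in urethra (log2 -0.80 ± 0.15, adjusted p = 0.00344). The tissues did not overlap at either stage, and 174 exon bases of Tjp3 are shared with Apba3 on the opposite strand. Tjp3 rose in urethra (log2 1.85 ± 0.27, adjusted p = 0.00044) and stood at -0.63 in bladder (adjusted p = 0.0772). The interaction was -2.48 (SE 0.38, adjusted p = 0.00129). Under pan-epithelial scaling the E14.5 difference (0.89), the urethral rise (1.23) and the interaction (-1.31) were still called. The E18.5 difference was not (-0.42, adjusted p = 0.0769).

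Tjp1 (chr7:65296165-65527781) was among the more abundant of the list, with 499.9, 505, 402 and 528 CPM in E14.5 bladder and 431, 279, 282 and 240.5 CPM in E14.5 urethra, which overlapped (log2 0.61 ± 0.17, adjusted p = 0.0217). At E18.5 it held 361, 368 and 382 CPM in bladder and 526, 413 and 485 CPM in urethra, which did not (log2 -0.38 ± 0.12, adjusted p = 0.037). The E14.5 call was kept without bladder replicate 3 or urethra replicate 1 and lost without any of the other 6 libraries (adjusted p = 0.0529 to 0.0621). The E18.5 call was kept without urethra replicate 2 and lost without any of the other 5 libraries (adjusted p = 0.089 to 0.15). It rose in urethra (0.61, adjusted p = 0.0137), a call lost without E18.5 replicate 1 (adjusted p = 0.0598). Its interaction was -0.96 (adjusted p = 0.0128). Pan-epithelial scaling left no call for Tjp1, with -0.28 at E14.5, 0.01 at E18.5, -0.08 for the urethral stage difference and 0.29 for the interaction.

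Cgn (chr3:94760069-94786515), which encodes cingulin, was higher in bladder at E14.5 and its relative Cgnl1 was not. Cgn held 221, 255, 183 and 245 CPM in E14.5 bladder and 129.8, 81.0, 70.5 and 66.3 CPM in E14.5 urethra, with no overlap (log2 1.34 ± 0.21, adjusted p = 0.00177). Its E18.5 levels were 114, 159 and 172 CPM in bladder and 182, 156 and 146 CPM in urethra, which overlapped (log2 -0.14 ± 0.16, adjusted p = 0.537). Cgnl1 held 51.7, 60.5, 70.3 and 68.4 CPM and 65.1, 54.5, 63.9 and 51.5 CPM at E14.5 (log2 0.05 ± 0.13, adjusted p = 0.748). At E18.5 the values were 48.5, 77.2 and 63.6 CPM in bladder and 89.6, 64.0 and 84.4 CPM in urethra (log2 -0.35 ± 0.18, adjusted p = 0.169). Cgn rose in urethra (0.88, adjusted p = 0.00728) and fell in bladder (-0.57, adjusted p = 0.0482). The fall was kept without E14.5 replicate 3 or E18.5 replicate 3 and lost without any of the other 5 libraries (adjusted p = 0.0678 to 0.177). The interaction of Cgn was -1.45 (adjusted p = 0.0057). Cgnl1 passed in none of the 5 comparisons. Under pan-epithelial scaling Cgn kept its E14.5 call (0.47) and lost the others (0.21 for urethra, -0.04 for bladder and -0.25 for the interaction). Cgnl1 was then called higher in E14.5 urethra (-0.89) and with an interaction of 0.91. Of all genes, 67.7% were then called higher in E14.5 urethra and 68.4% with an interaction towards bladder.

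F11r (chr1:171437535-171464603), which encodes the epithelial junctional adhesion molecule JAM-A, was higher in E14.5 bladder, where it held 326, 302, 248 and 278 CPM against 239, 135, 111 and 129 CPM in urethra (log2 0.87 ± 0.23, adjusted p = 0.0146). The E14.5 tissues did not overlap. At E18.5 it held 233, 254 and 332 CPM in bladder and 287, 350.0 and 266 CPM in urethra, which did (log2 -0.16 ± 0.16, adjusted p = 0.484). It rose in urethra (0.96, adjusted p = 0.00611). Its interaction of -1.01 (adjusted p = 0.037) was kept without bladder E14.5 replicate 3, urethra E14.5 replicate 1 or bladder E18.5 replicate 3 and lost without any of the other 11 libraries (adjusted p = 0.0558 to 0.101). Pan-epithelial scaling moved the E14.5 value to 0.03, the urethral rise to 0.31 (adjusted p = 0.0993) and the interaction to 0.17. It gave a rise in bladder (0.48, adjusted p = 0.0252), where 32.8% of all genes then rose. F11r thus differed in direction from Jam2 and Jam3 in both the E14.5 and the interaction values on the TMM scale.

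The polarity genes Pard6b and Crb3, of the Par and Crumbs complexes, were higher in E14.5 bladder. Pard6b (chr2:168081004-168101203) held 57.0, 78.2, 64.5 and 80.9 CPM there and 41.9, 25.9, 27.1 and 22.8 CPM in urethra (log2 1.21 ± 0.20, adjusted p = 0.00203). Crb3 (chr17:57059105-57065918) held 40.9, 52.7, 40.2 and 50.9 CPM and 25.0, 16.9, 20.4 and 15.2 CPM (log2 1.21 ± 0.17, adjusted p = 0.00102). Neither gene's tissues overlapped at E14.5, and neither passed at E18.5 (adjusted p = 0.354 and 0.506). Both rose in urethra (0.85 for Pard6b, adjusted p = 0.00724, and 0.70 for Crb3, adjusted p = 0.0224). The rise of Crb3 was lost without E14.5 replicate 2, E14.5 replicate 4 or E18.5 replicate 2 (adjusted p = 0.0631 to 0.13), and with the urethral libraries alone in the fit (adjusted p = 0.0521). Both fell in bladder (-0.56, adjusted p = 0.0457, and -0.70, adjusted p = 0.0202). The interactions were -1.41 and -1.40 (adjusted p = 0.00554 and 0.00683). The bladder fall of Pard6b was kept without E14.5 replicate 1 or E18.5 replicate 3 and lost without any of the other 5 libraries (adjusted p = 0.056 to 0.175). That of Crb3 was kept without E14.5 replicate 1, E14.5 replicate 3 or E18.5 replicate 3 and lost without any of the other 4 libraries (adjusted p = 0.0511 to 0.0867).

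Pard3 (chr8:127063893-127612286), the scaffold of the Par complex, did not pass at E14.5 (log2 0.36 ± 0.20, adjusted p = 0.177) and was higher in urethra at E18.5. It then held 157, 149 and 177 CPM in bladder and 319.5, 216 and 334 CPM in urethra, with no overlap (log2 -0.87 ± 0.18, adjusted p = 0.00548). It fell in bladder with stage (-0.80, adjusted p = 0.00942), where the E14.5 libraries ranged over 216 to 348 CPM. Its interaction was -1.19 (adjusted p = 0.0137). Patj, a scaffold of the Crumbs complex, fell in bladder (-0.66, adjusted p = 0.019), with 166 to 213 CPM at E14.5 and 95.2 to 131 CPM at E18.5. The call was lost without E14.5 replicate 4 or E18.5 replicate 1 (adjusted p = 0.0569 to 0.0806). Patj passed in neither tissue comparison (adjusted p = 0.0774 and 0.0509). Its interaction (-0.93, adjusted p = 0.0317) was kept without bladder E14.5 replicate 1, bladder E14.5 replicate 3, urethra E14.5 replicate 1, bladder E18.5 replicate 2, bladder E18.5 replicate 3 or urethra E18.5 replicate 2 and lost without any of the other 8 libraries (adjusted p = 0.0606 to 0.0946). Pan-epithelial scaling ended every call of these 4 polarity genes, among them the E14.5 values of Pard6b (0.32) and Crb3 (0.29) and the E18.5 value of Pard3 (-0.49). It called Pard3 and Patj higher in E14.5 urethra (-0.52 and -0.44), as it did 67.7% of all genes, whose median was -0.99.

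A second list of 35 junction genes, none of them among the 33, was measured beside them, and 30 of the 35 were tested at E18.5 and 31 in the other comparisons. At E14.5, 11 were higher in bladder (23.1% of all genes) and 5 in urethra (20.9%), with a median log2 fold change of -0.05. At E18.5, 9 were higher in bladder (19.3%) and 9 in urethra (18.6%), with a median of 0.16. The aPKC gene Prkcz (1.31, adjusted p = 0.000379), Igsf5 (2.49, adjusted p = 0.000597) and Ildr1 (2.09, adjusted p = 0.00139), a tricellular junction protein, had the smallest adjusted p on the bladder side at E14.5. On the urethral side these were Arhgef2 (-1.39, adjusted p = 0.0003), Amotl1 (-0.66, adjusted p = 0.00278) and Mpdz (-1.06, adjusted p = 0.00419). At E18.5 Esam, an adhesion molecule of endothelium (2.35, adjusted p = 0.000119), Ildr2 (2.49, adjusted p = 0.000521) and Bves (2.83, adjusted p = 0.00131), a membrane protein of muscle and epithelium, led on the bladder side. Cxadr, the coxsackievirus and adenovirus receptor (-1.64, adjusted p = 6.68e-05), Arhgef2 (-0.89, adjusted p = 0.000511) and Magi3 (-0.87, adjusted p = 0.00246) led on the urethral side. With stage 8 of them rose (19.9%) and 11 fell (20.4%) in bladder, and 9 rose (17.3%) and 3 fell (15.7%) in urethra. Their interaction was towards bladder for 9 (12.2%) and towards urethra for 12 (10.7%).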

How the data were processed

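RNA-seq libraries were made from poly(A) RNA with a directional kit and read in pairs, per the labels' protocols. HISAT2 2.2.1, SAMtools 1.9, bcl2fastq and the build GRCm38 are named in the submitters' processing notes. The authors deposited whole-number counts for 55228 genes, not normalized. How reads were assigned to genes (tool, strand, annotation) was not given in the sources used here, so genes that overlap on opposite strands may share reads. Genes with 2 counts outnumbered those with 1 in every library, so a count may be 1 read of a pair.

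Counts were tested with edgeR 4.0.16 (quasi-likelihood F test, TMM, filterByExpr, Benjamini-Hochberg over all genes tested) in R 4.3.3. Tissue comparisons used the libraries of 1 stage, and stage comparisons and the interaction all 14. The standard error is the log2 fold change divided by the root of F. The script was tested on simulated data. Members, gene lists, rules and alternatives were chosen with earlier results of these data known. Values in every library were given for 15 chosen genes and, per comparison and direction, for up to 6 passing genes with the largest fold change and at least 5 CPM, and for some others chosen after their values were seen. Alternatives were DESeq2 size factors, dropping the filter, filtering at 1 CPM, the test of DESeq2 1.42.0, a log2 fold change of at least 1, scaling to the 7 pan-epithelial genes, the mean log2 level of 15 mesenchyme markers as a covariate, the replicate number as a block, other sets of libraries in the fit, and leaving out each library. Promoters came from RefSeq (GRCm38.p6).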

Additional observations from a re-analysis of the deposited data

Results flagged for a closer look

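In E14.5 bladder, 3 genes had 1 library far from the other 3, and no gene checked had this in E14.5 urethra. The check covered 46 groups of 4 libraries, and chance gives the pattern in about 1 in 20 groups. A number of flags like this is therefore near what chance gives. Cldn6 stood at 34.4 CPM in replicate 1, below the others, Cldn8 at 130.7 CPM in replicate 3, below the others, and Cldn11 at 19.6 CPM in replicate 3, above the others.

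For 20 of the 27 genes (22.9% of all genes) the difference of bladder and urethra was not the same at the 2 stages by the test of the interaction. Under pan-epithelial scaling 8 of the 20 kept their call and direction, and with the mesenchyme covariate 0 did. The values that follow are on the TMM scale. The log2 change towards bladder was 4.51 for Cldn10, 3.24 for Cldn5, 2.97 for Jam3, 2.95 for Cldn15 and 2.82 for Jam2. Towards urethra the claudins stood at -3.99 for Cldn3, -2.85 for Cldn6, -1.83 for Cldn23, -1.28 for Cldn7 and -1.19 for Cldn4. The other membrane and plaque genes stood at -2.48 for Tjp3, -1.76 for Ocln, -1.45 for Cgn, -1.21 for Marveld2, -1.01 for F11r and -0.96 for Tjp1. The polarity genes stood at -1.41 for Pard6b, -1.40 for Crb3, -1.19 for Pard3 and -0.93 for Patj.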

How the results depend on the processing

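Scaling with DESeq2 size factors, dropping the filter, filtering at 1 CPM and testing with DESeq2 turned no call of the 27 genes. The size factors ended the bladder falls of Cgn and Pard6b (adjusted p = 0.0595 and 0.0555), as did the 1 CPM filter (0.0728 and 0.0678), and dropping the filter ended the E14.5 call of Cldn12 (0.0795). Of the 86 calls over the 5 comparisons, 61 were kept whichever library was left out and 25 were lost without at least 1 library, as given beside them.

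Scaling to the pan-epithelial genes moved the median of all genes to -0.99, 0.36, 0.54, -0.76 and 1.30 for E14.5, E18.5, bladder stage, urethral stage and interaction. It gave 2 genes higher in bladder and 12 in urethra at E14.5 (3.22 and 67.7% of all genes), 7 and 4 for E18.5 (29.3 and 7.64%), 9 higher and 3 lower in bladder with stage (32.8 and 1.66%), 5 and 7 in urethra (5.77 and 48.8%), and 10 positive and 3 negative interactions (68.4 and 1.59%). Among genes called under either scaling it turned these log2 fold changes. At E14.5 they became Cldn7 -0.14, Cldn12 -0.70, Marveld2 -0.31, Tjp1 -0.28, Cgnl1 -0.89, Pard3 -0.52 and Patj -0.44, and at E18.5 Tjp1 0.0072. In bladder with stage they became Cldn4 0.52, Cldn12 0.16 and F11r 0.48, and in urethra Cldn1 -0.19, Cldn7 -0.13, Marveld2 -0.46, Tjp1 -0.082 and Crb3 -0.0134. The interactions became Cldn7 0.0033, Cldn12 1.09, Marveld2 0.0541, Tjp1 0.29, Cgnl1 0.91, F11r 0.17, Pard3 0.0273 and Patj 0.28. Among genes called under neither it turned 7 at E18.5, 2 in bladder and 4 in urethra with stage, and 1 interaction. The scaling sets the geometric mean of those 7 genes level between libraries by construction.

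The mesenchyme covariate gave 9 genes higher in bladder and 0 in urethra at E14.5 (10.2 and 9.22% of all genes), 8 of them called before and the other Cldn5. It gave 0 and 0 for E18.5 (0 and 0.0228%), 0 higher and 2 lower in bladder with stage (1.17 and 2.05%; Cldn6, and Cldn11, not called before), and 0 positive and 0 negative interactions (0.0875 and 0.202%). In urethra with stage it gave 14 higher and 2 lower (19.8 and 18.3%), with all 14 earlier calls kept. Among genes called with or without it, it turned Cldn5 to 1.48 at E14.5, -1.32 in bladder with stage and -0.96 in the interaction. At E18.5 it turned Cldn23 to 0.81, Ocln to 0.0816, Marveld2 to 0.49 and Jam3 to -0.38, and in bladder with stage Cgn to 0.49, Jam2 to -0.14, Jam3 to -0.64, Pard6b to 0.29 and Patj to 0.21. Among genes called in neither it turned 7 at E18.5, 6 in bladder with stage and 1 interaction. The cause was not tested.

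With a log2 fold change of at least 1 there were 8 genes higher in E14.5 bladder, 3 in E18.5 urethra, 2 lower in bladder with stage and 5 higher in urethra with stage. Genes at large were not counted at that limit. For the settings that follow, brackets give the calls in that direction among all genes tested. All 14 libraries in 1 fit gave 6 higher in E18.5 urethra (2832 of 18286). The calls of Cldn7, Cldn23, Tjp1 and Tjp3 were lost there, and that of Jam3 in bladder. The urethral libraries alone gave 2 lower with stage (2421 of 17548), with Cldn9 added, and ended the rise of Crb3 (adjusted p = 0.0521). Leaving out 1 library gave 1 to 4 genes higher in E14.5 urethra. The count was 1 without bladder replicate 4 (2655 of 17104), and 2 without urethra replicate 2 (2665 of 16950) or 3 (2845 of 16892). In E18.5 urethra 6 to 9 were higher, with 6 without urethra replicate 1 (2268 of 18373). In bladder 7 to 11 were lower with stage, with 7 without E18.5 replicate 1 (3053 of 18718). In urethra 0 to 2 were lower with stage. The count was 0 without E14.5 replicate 3 (1990 of 18161) or E18.5 replicate 1 (1846 of 18784), 2 (1693 of 18733) or 3 (2132 of 18793). It was 2 without E14.5 replicate 1 (3290 of 18223). Positive interactions numbered 3 to 6, with 3 without urethra E18.5 replicate 1 (1532 of 18784) or 2 (1874 of 18733).

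The replicate block gave 16 genes higher in bladder and 4 in urethra at E14.5 (3993 and 3687 of all 16697 genes tested). For E18.5 it gave 7 and 8 (2793 and 2570 of 17513). Interactions were positive for 5 and negative for 16 (2242 and 2080 of 18286). With it Cldn7 (adjusted p = 0.0725) and Tjp1 (0.0775) lost their E18.5 calls. The labels do not say that a number marks a litter, so the numbers were not taken as pairs in the main test. Deviations from the group means of libraries with the same number correlated at 0.15, 0.13, 0.39 and -0.10 for E14.5 and at 0.14, -0.15 and -0.19 for E18.5. With different numbers the correlations ranged over -0.39 to 0.26 for E14.5 and -0.27 to 0.36 for E18.5. With so few libraries these values cannot decide whether a number marks a litter. No paired analysis was possible for the stage comparisons because the stages came from different litters.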
